A study of Homo sapiens with 9 samples.

Results

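The genes described here are 39 genes of the NF-kB pathway and its best known outputs, the inflammatory cytokines and chemokines, chosen by gene symbol from 18143 genes in the files. They comprise Rel subunits, inhibitors, feedback proteins, adaptors, chemokines, cytokines, surface proteins and 2 enzymes. Their RNA was measured by sequencing in A549 cells, an established human lung adenocarcinoma line, 48 h after transfection of small interfering RNA (siRNA). The 3 groups received a control siRNA (Scramble) or 1 of 2 siRNAs against REV1, a DNA polymerase that copies past damaged bases (SiREV1#1 and SiREV1#2). Each group had replicates 1, 2 and 3, so there were 9 libraries. All libraries came from this single line, and the labels do not say whether the replicates were separate cultures, so the p-values below measure only the spread between these libraries, which may be technical. The question was how these genes differed between Scramble and each siRNA within same-numbered replicates, and how replicate 1 differed from replicates 2 and 3.

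NF-kB transcription factors are dimers of Rel subunits that inhibitor proteins of the IkB family hold in the cytoplasm. Receptors for TNF, interleukin-1 and microbial products activate a kinase complex that marks the inhibitors for destruction, after which the dimers enter the nucleus. Many of their target genes encode chemokines and cytokines that recruit and instruct leukocytes, and others encode the inhibitors themselves, which closes a feedback loop. Airway epithelial cells and lung tumor cell lines are known producers of such factors.

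NF-kB dimers recognize short DNA words, and 1 common form, GGANNTTCC (reverse complement GGAANNTCC), was searched on both strands from 250 bases before to 50 bases after each annotated start in RefSeq (GRCh38.p14). IL1A, IL11, PTGS2 and BIRC3, which are also named in the results, held no match. The windows of 6 members that do hold the word are shown, and the word is in capitals.
CXCL8: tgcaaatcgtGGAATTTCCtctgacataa
CXCL1: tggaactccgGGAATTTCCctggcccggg
CXCL2: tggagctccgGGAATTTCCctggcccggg
CXCL3: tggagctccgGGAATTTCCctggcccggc
IL6: atcaaatgtgGGATTTTCCcatgagtctc
NFKB2: ggtattttcgGGACTTTCCtaagctgctc
The windows lie at chr4:73740468-73740496 (plus strand, word at -91) for CXCL8, chr4:73869305-73869333 (plus strand, word at -78) for CXCL1, chr4:74099254-74099282 (minus strand, word at -77) for CXCL2 and chr4:74038749-74038777 (minus strand, word at -78) for CXCL3, all within 1 chemokine cluster on chromosome 4, with positions counted from the transcription start. Those of IL6 and NFKB2 lie at chr7:22727118-22727146 (plus strand, word at -72) and chr10:102395675-102395703 (plus strand, word at -20). CXCL1, CXCL2 and CXCL3 carry nearly the same bases around the word, and their transcripts also resemble each other: 12.5% of the 50-base words of CXCL2 occur in other genes, CXCL3 foremost, against 6.01% for CXCL3 and 4.81% for CXCL1. Reads of these 3 genes can therefore be hard to assign. The same holds for CCL5 (13.9%, TUBD1 foremost) and SOD2 (8.65%, SOD2-OT1 foremost), and exons of SOD2 also lie opposite ACAT2 and WTAP. Of the 39 genes, 32 matched a promoter in the RefSeq table, and 20 of these (62.5%) held the word in at least 1 promoter, against 5.57% of 27305 genes. Per promoter, 21 of 50 (42.0%) held it, against 4.56% of 35116 promoters. A match is a description and not a site or a cause, and the genes had been listed as NF-kB genes, which bears on this share.

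The deposited values were estimated counts and FPKM, fragments per kilobase of transcript scaled to library size, which allow levels to be compared between genes. Total counts per library were between 13059082 (SiREV1#1 replicate 1) and 20166451. The count column of SiREV1#2 replicate 3 repeated that of replicate 2 at every gene, so fits on counts held 8 libraries and FPKM all 9. Replicate 1 of each group stood apart: the chi-square of counts per degree of freedom was between 189.95 and 282.8 for replicate 1 against another library of its group, and 5.78 and 2.41 for replicate 2 against 3 in Scramble and SiREV1#1. REV1 was at 7.23, 7.90 and 8.44 FPKM in Scramble replicates 1, 2 and 3. It was at 2.60, 2.92 and 3.36 FPKM in SiREV1#1 and 3.62, 3.36 and 3.18 in SiREV1#2, and each siRNA library lay below each Scramble library. Its log2 fold change was -1.26 (SE 0.17, edgeR adjusted p = 0.042) for SiREV1#1 and -1.33 (SE 0.20, edgeR adjusted p = 0.15) for SiREV1#2 without a block, and with the replicate number as a block the adjusted p from edgeR was 0.0016 and 0.0099. Epithelial markers summed to between 5680.2 and 11608 FPKM in every library. The keratins KRT7, KRT8 and KRT18 made up nearly all of this, while CDH1 was at 6.32 to 43.8 FPKM and EPCAM at 0.73 to 2.38. The endothelial markers PECAM1, VWF and CDH5, the fibroblast markers DCN and PDGFRB and the leukocyte markers PTPRC and LYZ were under 1 FPKM in all 9. The fibroblast marker COL1A1 was at 0.2 to 1.57 FPKM, highest in SiREV1#1 replicate 1. The leukocyte list as a whole summed to 46.8 to 89.3 FPKM in replicate 1 and 21.2 to 29.8 in replicates 2 and 3, mostly CD68 and CD14. CD68 and CD14 were higher in replicate 1, while ITGAM of the same list was lower, at 0.66 to 1.04 against 1.69 to 4.96 FPKM. The part of this list and that of depth in the differences below was not tested. In such bulk samples fewer cells of a type and less RNA per cell cannot be told apart.

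The 9 libraries showed an epithelial line with abundant NF-kB inhibitors and chemokines. Over all libraries, CXCL8 (interleukin-8, which attracts neutrophils), NFKB2 (the p100/p52 subunit), SOD2 (mitochondrial superoxide dismutase, an induced antioxidant enzyme) and NFKBIA (IkB-alpha, the main feedback inhibitor) had the highest mean levels, at 198, 179, 174 and 151 FPKM. The means rest mostly on replicates 2 and 3: in replicate 1 CXCL8 was at 6.5 to 35.4 and NFKB2 at 16.2 to 34.5 FPKM, below BCL3 at 51.6 to 199. At the other end, CSF2 had at most 3 counts in any library and did not pass the filter, which kept 38 of the 39 genes, and IL1B had at most 10. IL1A, CD40 and CD83 stayed under 3 FPKM in all libraries. Little can be said of these low genes.

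**Figure D1:**
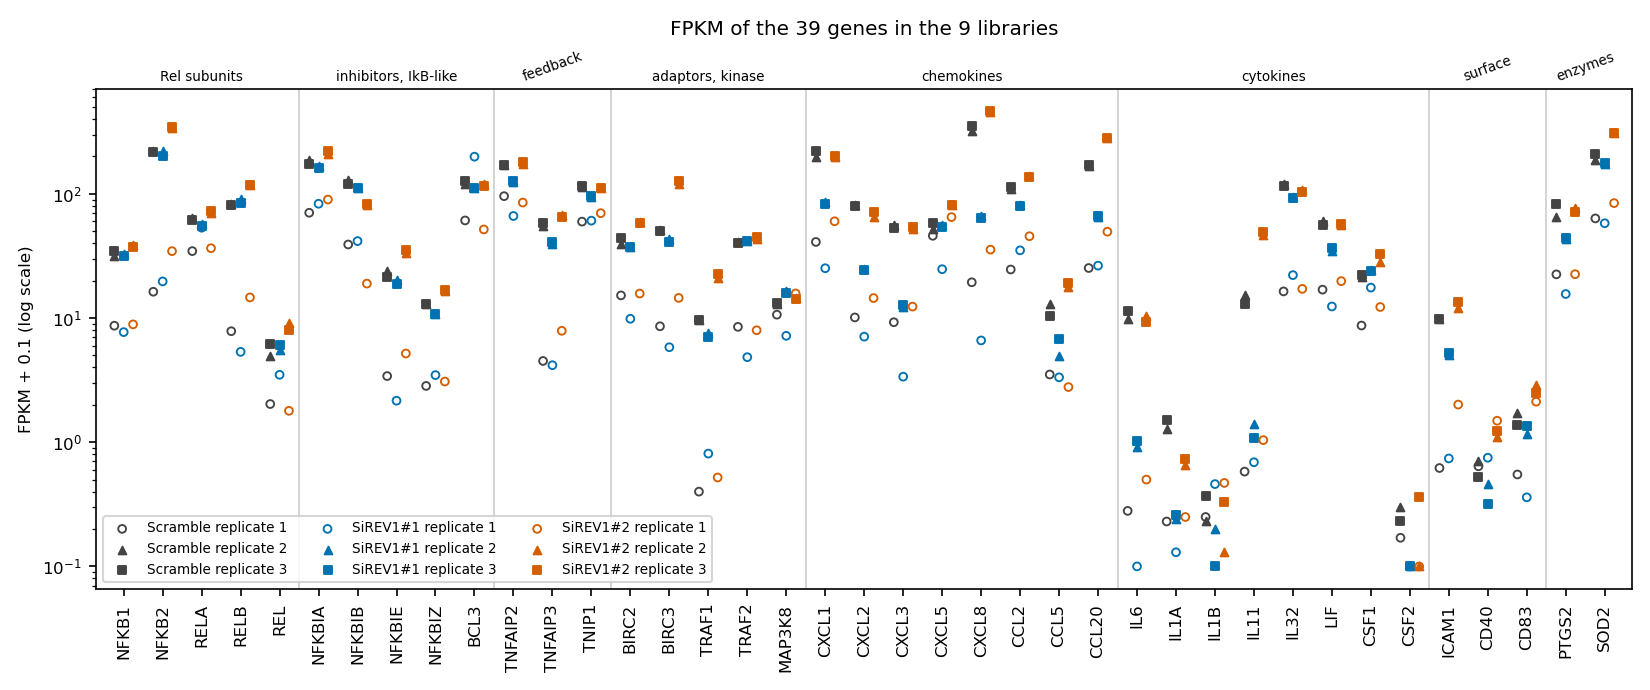
FPKM + 0.1 on a log axis for each of the 39 genes (x axis, grouped by role) in the 9 libraries; gray is Scramble, blue SiREV1#1 and orange SiREV1#2, and open circles, triangles and squares are replicates 1, 2 and 3. For most genes the open circles lie below the filled marks in every group, as for NFKB2 at 16.2 to 34.5 FPKM in replicate 1 and 203 to 342 in replicates 2 and 3, while triangles and squares of a group nearly coincide.

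Of the comparisons made, that of replicate 1 with replicates 2 and 3 gave the most calls and the largest median difference among these genes. Differences are given on the log2 scale with their standard error (SE). With a term for replicate 1 beside the group, 34 of 38 genes were lower in replicate 1 at an adjusted p under 0.05 and 0 were higher (edgeR's quasi-likelihood test, Benjamini-Hochberg adjustment over 14205 genes). Over all genes, 30.7% were lower and 31.2% higher. The median log2 difference, replicate 1 minus replicates 2 and 3, was -1.83 over the 38 genes and 0.02 over all genes tested. BCL3, MAP3K8, IL1B and CD40 did not pass.

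Among the subunits, NFKB2 was at 16.2, 219 and 218 FPKM in Scramble replicates 1, 2 and 3, and all 3 values of replicate 1 (16.2 to 34.5 FPKM) lay below all 6 of replicates 2 and 3 (203 to 342 FPKM). RELB, the partner of p52 in the noncanonical pathway, was at 5.24 to 14.6 FPKM in replicate 1 and 80.7 to 119 in the others, again without overlap. The log2 difference was -3.47 (SE 0.14, edgeR adjusted p = 6e-07) for NFKB2 and -3.44 (SE 0.17, edgeR adjusted p = 1.3e-06) for RELB. NFKB1, the p105/p50 subunit, differed by -1.97, REL by -1.40 and RELA, the p65 subunit, by -0.52 (SE 0.18, edgeR adjusted p = 0.035). The difference was smallest for RELA. For REL, 43.1% of the 50-base words also occur in other genes, foremost the overlapping AC010733.2.

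Of the inhibitors and IkB-like genes 4 of 5, and of the feedback genes 3 of 3, were lower in replicate 1. NFKBIE (IkB-epsilon) was at 2.06 to 5.08 FPKM in replicate 1 and 18.7 to 35.4 in the others, a log2 difference of -2.83 (SE 0.12, edgeR adjusted p = 7.8e-07). TNFAIP3 (A20, an enzyme that edits ubiquitin chains and ends the signal) was at 4.07 to 7.79 against 39.4 to 66.9 FPKM, with -3.29 (SE 0.14, edgeR adjusted p = 7.8e-07). NFKBIZ (IkB-zeta, a nuclear cofactor) differed by -2.02, NFKBIB (IkB-beta) by -1.66 and NFKBIA by -1.11. The differences of TNFAIP2 (-0.84) and TNIP1 (-0.73), which binds A20, were under 1 on the log2 scale. BCL3, an IkB-like nuclear cofactor, was at 199, 112 and 111 FPKM in SiREV1#1 and 61.0, 121 and 127 in Scramble, so that 1 library of replicate 1 was the highest of all 9. Among the adaptors, TRAF1, itself an NF-kB target, was at 0.30 to 0.71 FPKM in replicate 1 and 6.90 to 22.3 in the others, a log2 difference of -4.54 (SE 0.35, edgeR adjusted p = 1.1e-05). BIRC3 (cIAP2, a ubiquitin ligase of the TNF receptor complex) differed by -2.77, its relative BIRC2 by -1.70 and TRAF2 by -2.53. The kinase MAP3K8 (TPL2), at 10.5, 12.8 and 13.1 FPKM in Scramble and 15.7, 14.5 and 14.2 after SiREV1#2, had values of replicate 1 on both sides of the others (-0.46, edgeR adjusted p = 0.061).

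Among the ligands, IL6, a cytokine of the acute phase, was at 0 to 0.40 FPKM in replicate 1 and 0.82 to 11.3 in replicates 2 and 3, with 0 counts in SiREV1#1 replicate 1. Its log2 difference was -5.01 (SE 0.29, edgeR adjusted p = 2.6e-06). IL11, a cytokine related to IL6, differed by -4.61. CXCL8 differed by -3.72 (SE 0.18, edgeR adjusted p = 1.2e-06), and by level it ranked 3700 of the 18143 genes in Scramble replicate 1 and 206 in the mean of Scramble replicates 2 and 3. The neutrophil chemokines CXCL1, CXCL2 and CXCL3 differed by -1.89, -2.29 and -2.19. CCL2, CCL5 and CCL20, which attract monocytes, T cells and CCR6-bearing cells, differed by -1.58, -1.69 and -2.08. IL32, LIF and CSF1, the growth factor of macrophages, had -2.46, -1.55 and -0.97. All 8 chemokines and 6 of 7 cytokines tested passed, CXCL5 with the smallest difference among the chemokines (-0.51). ICAM1, which binds leukocyte integrins, differed by -3.19 and CD83 by -1.19, and of the enzymes SOD2 by -1.76 and PTGS2 (cyclooxygenase-2, which makes prostaglandins) by -1.58. For 14 of the 38 genes each replicate 1 library was more than 2-fold below each library of replicates 2 and 3, against 4.90% of all genes tested. CD40, at 0.54 to 1.39 FPKM in replicate 1 and 0.22 to 1.14 in the others, overlapped. CD83 no longer passed without Scramble replicate 1 (-0.90, adjusted p = 0.071 from edgeR).

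**Figure D2:**
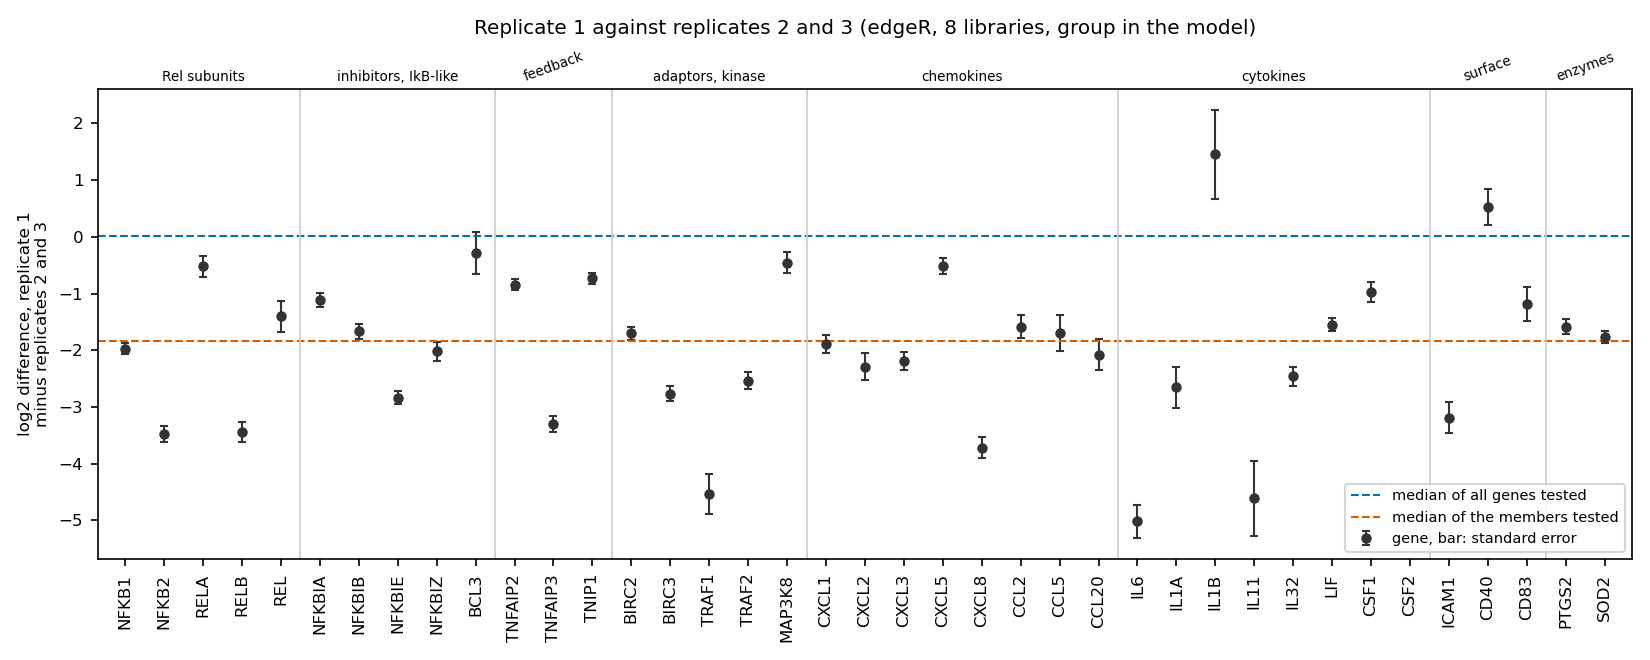
Log2 difference of replicate 1 from replicates 2 and 3 (y axis) for the 38 genes tested, with bars of 1 standard error from the edgeR fit of 8 libraries; CSF2 was not tested. The dashed lines mark the median of all genes tested (0.02) and of these genes (-1.83); IL6, IL11 and TRAF1 lie lowest, and IL1B and CD40 lie above 0.

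Other genes of the pathway, from lists that hold no member, were read beside this difference. Of 30 genes tested upstream of NF-kB (receptors, adaptors, kinases and ubiquitin enzymes), 13 were lower and 9 higher in replicate 1, with a median of -0.04. MAP3K14 (NIK, the kinase of the noncanonical pathway) was lower, with a log2 difference of -3.17 (SE 0.13, edgeR adjusted p = 5.8e-07). The receptor TNFRSF1A, at 163, 56.9 and 55.2 FPKM in Scramble, was higher, by 1.83 (SE 0.12, edgeR adjusted p = 5.5e-06). The adaptor MYD88 was also higher, by 2.51 (SE 0.17, edgeR adjusted p = 4.9e-06). Upstream genes therefore moved in both directions, unlike the members. So did all genes tested, with 30.7% lower and 31.2% higher, and the upstream counts are not far from these shares. Of 19 other known NF-kB targets 15 were lower and 0 higher (median -1.09), and of 11 other inflammatory ligands 9 were lower and 0 higher (median -1.41). All 10 immediate early and AP-1 genes were lower (median -3.35), among them ATF3 with -5.47 (SE 0.16, edgeR adjusted p = 2.1e-07) and JUN with -3.83 (SE 0.20, edgeR adjusted p = 1.5e-06). These are stress- and growth-factor-induced genes outside the NF-kB family, mostly transcription factors, and their part in the difference was not tested. Of 11 interferon response genes 3 were lower and 4 higher, also not far from the shares over all genes.

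After SiREV1#1, 8 genes for chemokines and cytokines and the enzyme gene PTGS2 fell relative to Scramble with the replicate number as a block, while the Rel subunits did not pass. Without a block, the main test here, 0 of the 38 genes passed in edgeR, against 0.296% of all genes, 1385 of all genes and 2 of the 38 had an unadjusted p under 0.05, and DESeq2 called 569 genes, 0 of them members. With the block, 9 of 38 genes fell at an adjusted p under 0.05 in edgeR (CXCL1, CXCL2, CXCL3, CXCL8, IL6, IL1A, IL11, LIF and PTGS2) and 0 rose, while over all genes 6.96% fell and 5.32% rose. By role, 4 of 8 chemokines, 4 of 7 cytokines and 1 of 2 enzymes fell, and 0 of 5 subunits, 0 of 5 inhibitors and IkB-like proteins, 0 of 3 feedback genes, 0 of 5 adaptors and 0 of 3 surface proteins. The median log2 fold change was -0.26 over the 38 genes and 0.0 over all.

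CXCL8 was at 19.3, 319.7 and 351 FPKM in Scramble replicates 1, 2 and 3 and at 6.5, 66.5 and 63.8 after SiREV1#1. It was lower in each same-numbered pair, but Scramble replicate 1 lay below SiREV1#1 replicates 2 and 3, so the groups overlapped when the numbers were ignored. With the block the log2 fold change came to -2.09 (SE 0.20, edgeR adjusted p = 0.0015), and without it to -2.32 (SE 1.34, edgeR adjusted p = 0.71). CXCL3 (GRO-gamma) was at 9.15, 56.1 and 53.1 FPKM in Scramble and 3.27, 12.3 and 12.7 after SiREV1#1, a fall in each pair, with a log2 fold change of -1.90 (SE 0.19, edgeR adjusted p = 0.0016). CXCL2 and CXCL1, which like CXCL3 and CXCL8 attract neutrophils through CXCR2, had smaller fold changes. CXCL2 was at 10.0, 81.7 and 80.0 FPKM in Scramble and 6.98, 24.7 and 24.1 after SiREV1#1, with a log2 fold change of -1.32 (SE 0.26, edgeR adjusted p = 0.018). CXCL1 was at 40.9, 199 and 220.4 FPKM in Scramble against 25.1, 85.4 and 83.2, with -1.05 (SE 0.18, edgeR adjusted p = 0.012). Both were lower in each pair, and both had groups that overlapped through replicate 1. CXCL5, another ligand of CXCR2 in the same cluster, was at 45.8, 52.1 and 57.8 FPKM in Scramble and 24.6, 55.6 and 53.7 after SiREV1#1, and its groups overlapped with pairs on both sides of 0 (log2 fold change -0.21, SE 0.18, edgeR adjusted p = 0.48).

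IL6 was at 0.18, 9.63 and 11.3 FPKM in Scramble and 0, 0.82 and 0.92 after SiREV1#1, or 5, 228 and 268 counts against 0, 18 and 22. Each SiREV1#1 library was below the same-numbered Scramble library, and the log2 fold change of -3.57 (SE 0.27, edgeR adjusted p = 0.00094) was the largest of the 9. IL11 was at 0.48, 15.2 and 13.0 FPKM in Scramble and 0.59, 1.3 and 0.98 after SiREV1#1, lower in replicates 2 and 3 and not in replicate 1, with -3.13 (SE 0.70, edgeR adjusted p = 0.027). IL1A (interleukin-1 alpha) was a low gene with at most 84 counts in a library. Its level was 0.13, 1.17 and 1.42 FPKM in Scramble and 0.03, 0.14 and 0.16 after SiREV1#1, a log2 fold change of -2.99 (SE 0.37, edgeR adjusted p = 0.0035). The cytokine LIF was lower in each pair too, at 16.8, 59.9 and 56.0 FPKM in Scramble and 12.3, 34.4 and 36.5 after SiREV1#1, with -0.55 (SE 0.14, edgeR adjusted p = 0.041). PTGS2 was at 22.4, 64.4 and 82.3 FPKM in Scramble and 15.5, 43.3 and 44.0 after SiREV1#1, with -0.59 (SE 0.15, edgeR adjusted p = 0.044). CCL20, which attracts cells bearing CCR6, was at 25.2, 168 and 171 FPKM in Scramble and 26.3, 65.3 and 66.3 after SiREV1#1, so replicates 2 and 3 were lower and replicate 1 was not (log2 fold change -0.82, SE 0.31, edgeR adjusted p = 0.13). The libraries' strandedness is not stated in the sources used here, and exons of IL6 and LIF lie opposite exons of other genes (STEAP1B and LIF-AS1 among them).

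Of the members, those for Rel subunits, inhibitors and IkB-like proteins did not pass in the same fit. NFKB2 was at 19.6, 219.9 and 203 FPKM after SiREV1#1 against 16.2, 219 and 218 in Scramble, with a log2 fold change of 0.09 (SE 0.15, edgeR adjusted p = 0.75). RELB had -0.01, NFKB1 -0.03, RELA 0.18, NFKBIA 0.06 and NFKBIB -0.05. The standard errors of these 5 lay between 0.12 and 0.22, and changes well above these could also go uncalled. TNFAIP2, for example, did not pass at -0.42 (SE 0.12, edgeR adjusted p = 0.067). REL had 0.42 (SE 0.31), NFKBIE -0.27 (SE 0.135), NFKBIZ -0.03 (SE 0.19) and BCL3 0.62 (SE 0.43). Of the 9 genes that fell, 8 matched a promoter and 5 of these held the word GGANNTTCC, beside 15 of the 24 other members that matched. The log2 fold changes of the 29 members that did not pass ran from -0.82 (CCL20) to 0.62 (BCL3).

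How far the falls rest on single libraries was read from fits with the block that left out each of the 8 libraries in turn, an alternative chosen after seeing the data. Replicates 2 and 3 of Scramble and SiREV1#1 nearly coincide, so leaving out 1 of them keeps a near copy. Passing in all 8 fits is therefore a limited check. In replicate 1, Scramble and SiREV1#1 had 5 and 0 counts of IL6 and 7 and 1 of IL1A. The falls of IL6 and IL1A thus rest mostly on replicates 2 and 3. CXCL3, CXCL8, IL6 and IL1A passed in all 8. CXCL1 and CXCL2 passed in 5, IL11 in 3, PTGS2 in 2 and LIF in 1. The number of genes that passed was 4 without Scramble replicate 2, Scramble replicate 3 or SiREV1#1 replicate 3, 6 without SiREV1#1 replicate 2, 7 without Scramble replicate 1, 8 and 9 without SiREV1#2 replicates 2 and 1, and 13 without SiREV1#1 replicate 1, the shallowest library. The count over all genes moved with it, from 323 to 333 genes in the fits with 4 members to 3432 of 14118 in the fit with 13. By FPKM alone, 16 of the 38 genes were lower in 3 of 3 same-numbered pairs and 1 (CSF1) was higher, against 32.6% and 19.0% of all genes tested, a share of lower genes not far from that of the other genes. In replicates 2 and 3 only, limma-trend on log2(FPKM + 0.1), also chosen after seeing the data, called 27 of 37 genes lower and 1 (MAP3K8) higher, beside 29.4% and 24.5% of 12175 genes. That fit draws its error from libraries that nearly coincide.

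**Figure D3:**
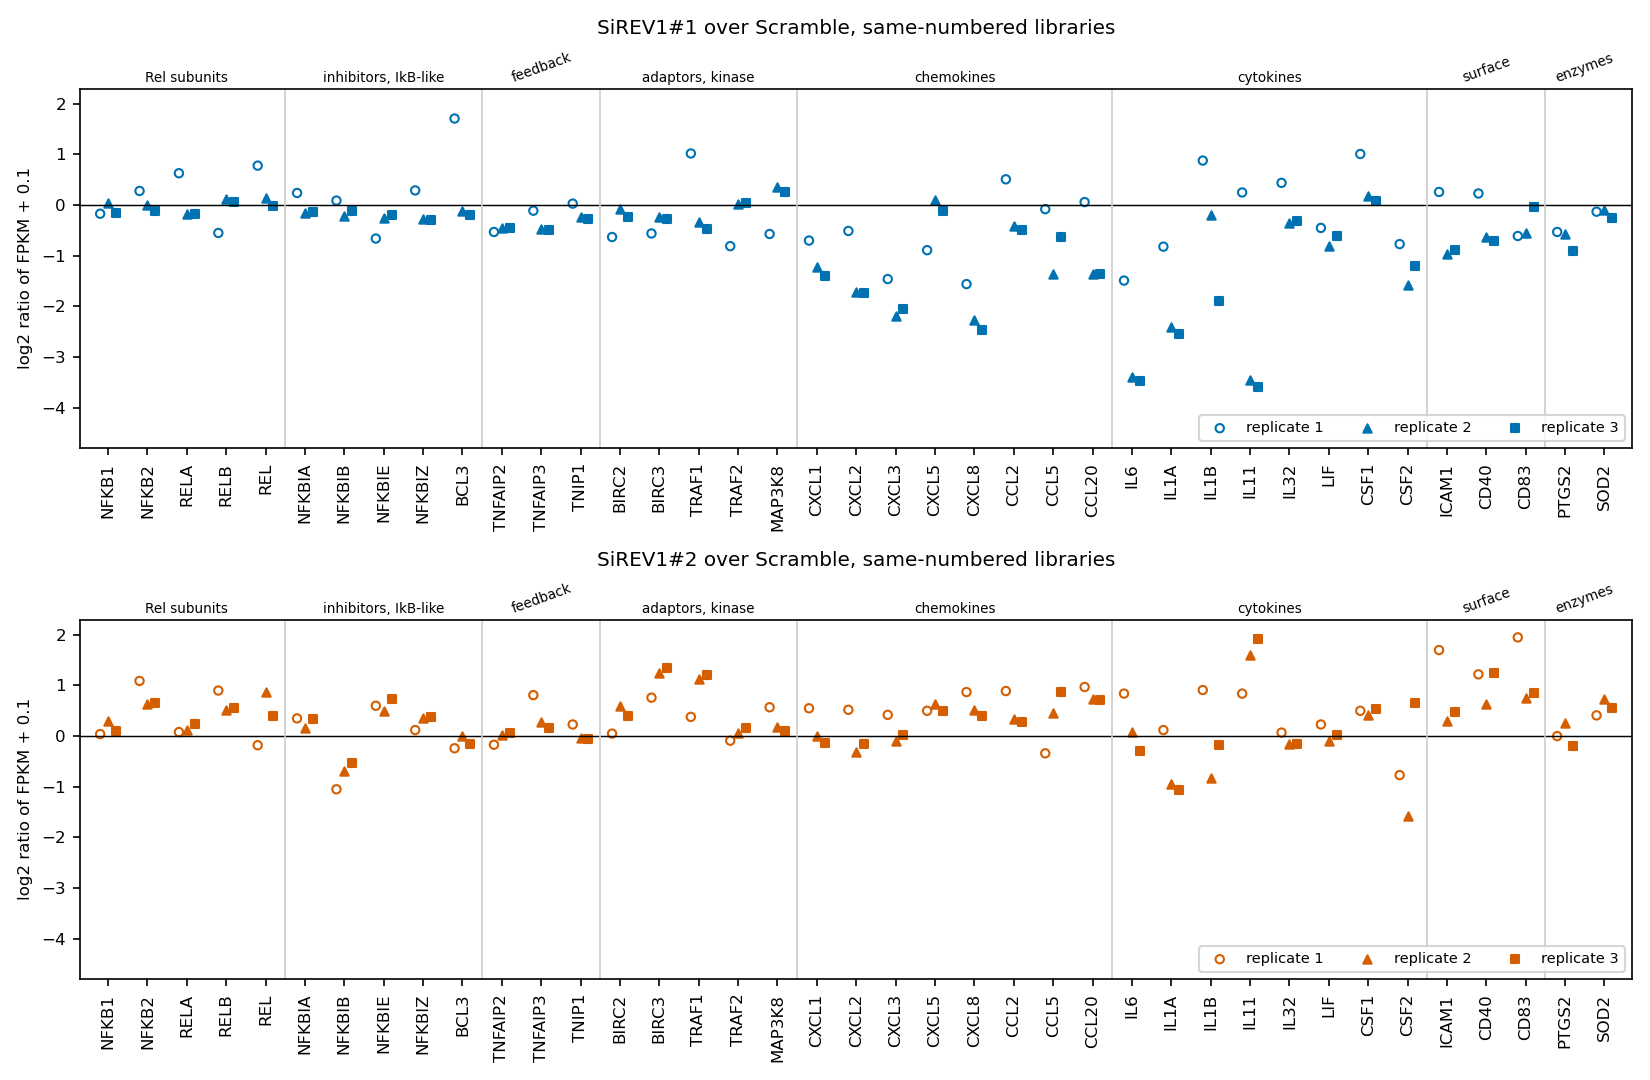
Log2 ratio of FPKM + 0.1 to the same-numbered Scramble library (y axis) for each of the 39 genes after SiREV1#1 (upper panel) and SiREV1#2 (lower panel), with open circles, triangles and squares for replicates 1, 2 and 3. After SiREV1#1 the marks of CXCL1, CXCL2, CXCL3, CXCL8, IL6 and IL1A all lie below 0, the CXCL8 ratios at -1.56, -2.26 and -2.46; after SiREV1#2 those of CXCL8 lie at 0.87, 0.51 and 0.39. The added 0.1 shrinks the ratios of low genes.

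After SiREV1#2 the calls depended on the fit, and BIRC3 was the gene that passed in edgeR with the block. Without a block, 0 of 14205 genes (0%) passed in edgeR, 778 of all genes and 1 of the 38 had an unadjusted p under 0.05, and DESeq2 called 216 genes, 0 of them members. With the block, 1 of 38 genes rose (BIRC3) and 0 fell, against 0.493% and 1.41% of all genes. Limma-trend on log2(FPKM + 0.1) with the block called 6 higher and 1 lower. The share over all genes was not counted for that fit, so these calls cannot be set against a background. The median log2 fold change with the block was 0.29 over the 38 genes and 0.01 over all.

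BIRC3 was at 8.48, 51.1 and 49.7 FPKM in Scramble and 14.4, 121 and 126 after SiREV1#2, higher in each pair, with a log2 fold change of 1.06 (SE 0.17, edgeR adjusted p = 0.029). It passed in 3 of the 8 block fits that left out a library (SiREV1#1 replicate 1, SiREV1#1 replicate 2 or SiREV1#2 replicate 1), and was at -1.36 to 1.77 in fits without a block that did so. NFKB2 was at 34.5, 338 and 342 FPKM after SiREV1#2, above same-numbered Scramble each time, and had 0.86 (SE 0.18, edgeR adjusted p = 0.057). NFKBIB (IkB-beta) was at 39, 130.2 and 120.0 FPKM in Scramble and 18.8, 81.4 and 82.4 after SiREV1#2, lower in each pair, with -0.85 (SE 0.18, edgeR adjusted p = 0.057). The induced surface protein CD83 was at 0.45, 1.62 and 1.27 FPKM in Scramble and 2.02, 2.81 and 2.37 after SiREV1#2, without overlap, with 1.55 (SE 0.37, edgeR adjusted p = 0.081). CXCL5 was at 64.9, 80.5 and 81.3 FPKM, above every Scramble library (log2 fold change 0.62, SE 0.20, edgeR adjusted p = 0.17). None of these 4 passed, and part of the NFKBIB exons lies opposite SIRT2.

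Of the 9 genes that fell after SiREV1#1, 0 passed after SiREV1#2 in edgeR with the block. CXCL8 was at 35.4, 454 and 461 FPKM after SiREV1#2, higher than Scramble in each pair (log2 fold change 0.60, SE 0.22, edgeR adjusted p = 0.22). IL6 was at 0.40, 10.3 and 9.20 FPKM, with pairs on both sides of 0 (log2 fold change 0.24, SE 0.27, edgeR adjusted p = 0.73). CXCL3, at 12.3, 52.4 and 54.2 FPKM, likewise had pairs on both sides (log2 fold change 0.12, SE 0.20, edgeR adjusted p = 0.83). IL11 was at 0.94, 46.7 and 49.3 FPKM, higher in each pair (log2 fold change 1.27, SE 0.66, edgeR adjusted p = 0.37), and IL1A at 0.15, 0.56 and 0.63 FPKM, lower in replicates 2 and 3 (log2 fold change -0.73, SE 0.38, edgeR adjusted p = 0.37). By FPKM, 22 of the 38 genes were higher in 3 of 3 pairs and 1 (NFKBIB) lower, beside 23.3% and 28.7% of all genes tested. In replicates 2 and 3 only, limma-trend called 23 of 37 genes higher and 4 (CXCL2, IL32, IL1A and NFKBIB) lower, beside 26.7% and 25.5%.

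The contrast between the siRNAs was tested directly. Without a block 0 of the 38 passed in edgeR, against 0.676% of all genes, 1762 of all genes and 2 of the 38 had an unadjusted p under 0.05, and DESeq2 called 878 genes, 1 of them a member. With the block, 20 of the 38 genes were lower after SiREV1#1 than after SiREV1#2 and 1 (NFKBIB) was higher, against 8.87% and 8.75% of all genes. REV1 itself differed by 0.00 on the log2 scale (SE 0.15) in that fit. Of the chemokines, CXCL8 had a difference of -2.68 (SE 0.23, edgeR adjusted p = 0.00096) and CXCL3 of -2.02 (SE 0.21, edgeR adjusted p = 0.0018). Of the cytokines, IL6 had -3.81 (SE 0.32, edgeR adjusted p = 0.00098). Of the adaptors, BIRC3 had -1.35 (SE 0.17, edgeR adjusted p = 0.0031), and of the inhibitors NFKBIE -0.88 (SE 0.16, edgeR adjusted p = 0.01). These 5 genes passed in all 8 block fits that left out a library. Here too, leaving out replicate 2 or 3 of Scramble or SiREV1#1 kept a library that nearly coincides with it, which limits this check. The 2 siRNA comparisons share the Scramble libraries, and the contrast does not use them except through the block and the shared spread. Without SiREV1#1 replicate 1 the count was 27, without Scramble or other SiREV1#1 libraries 11 to 18, and without SiREV1#2 replicate 1 or replicate 2 it was 9 and 7, where 1 SiREV1#2 library remained. Over all genes the same fits called 4021 of 14118, 1212 to 1957, 1811 and 540.

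Beside the members, few genes of the upstream pathway moved with either siRNA in the block fit. Of the 30 tested, CHUK (the kinase IKK-alpha) fell after SiREV1#1, from 13.5, 16.6 and 17.9 FPKM to 6.34, 7.80 and 7.82, each library below all of Scramble, with a log2 fold change of -1.06 (SE 0.14, edgeR adjusted p = 0.0049). The receptor IL1R1 rose, by 0.96 (SE 0.19, edgeR adjusted p = 0.02). With SiREV1#2, 2 of the 30 rose, IL1RAP (the co-receptor of IL1R1) by 1.77 (SE 0.22, edgeR adjusted p = 0.013) and MAP3K14 by 0.96 (SE 0.16, edgeR adjusted p = 0.031). Of 19 other known NF-kB targets, IER3 fell after SiREV1#1, with -1.39 (SE 0.21, edgeR adjusted p = 0.007). CEBPD and EFNA1 rose, with 1.04 (SE 0.14, edgeR adjusted p = 0.0045) and 0.91 (SE 0.13, edgeR adjusted p = 0.0056), and 0 of the 19 passed after SiREV1#2. Beside 6.96% lower and 5.32% higher over all genes after SiREV1#1, the counts for that siRNA are near the background. After SiREV1#2, 1.41% of all genes were lower and 0.493% higher. The 2 of 30 upstream genes that rose lie above that share, but are only 2 genes. Immediate early and interferon genes gave 0 calls of 10 and 0 of 11 after each siRNA in this fit.

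**Figure D4:**
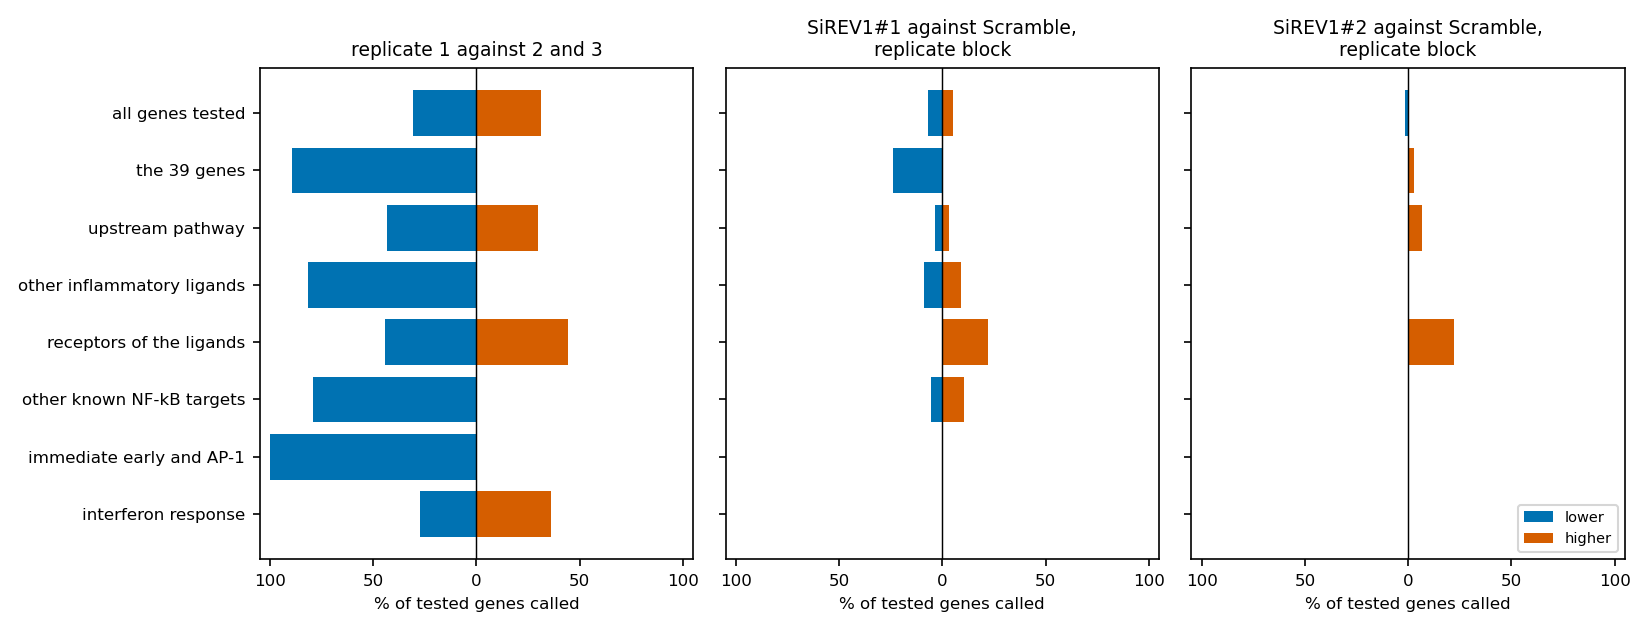
Percent of tested genes called lower (blue, left of 0) or higher (orange, right of 0) at an adjusted p under 0.05 in edgeR, for all genes, these 39 genes (38 tested) and 6 lists that hold no member, in replicate 1 against replicates 2 and 3 and, with the replicate block, in SiREV1#1 and SiREV1#2 against Scramble. The 39 genes and the immediate early list lie almost wholly on the left in the first panel, where 34 of 38 and 10 of 10 were lower; in the second panel 9 of these 38 genes lie on the left, beside 6.96% of all genes.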

How the data were processed

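The members, gene lists and tests were chosen with earlier results of these data known. Per the labels, RNA of A549 cells was sequenced in 3 groups of 3 libraries, grouped and numbered by sample title. For each library the authors deposited estimated counts, which are not normalized and of which 42.6% are not whole, and FPKM values, scaled by transcript length and library size. The submitters' processing notes name StringTie 1.3.3b and hg38, and further steps are not given in the sources used here. Of the count columns, 1 (SiREV1#2 replicate 3) equals another at 100% of genes and was not used.

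Counts were rounded, filtered with filterByExpr (14205 genes, which removes genes with few counts), scaled by TMM and tested with edgeR 4.0.16 (quasi-likelihood F test, Benjamini-Hochberg, adjusted p under 0.05) in 1 fit of 8 libraries, without a block. Each standard error was computed from the size of the log2 fold change over the root of the F statistic. Alternatives were a replicate block, DESeq2 1.42.0, limma 3.58.1 (limma-trend) on FPKM values plus a pseudocount of 0.1 or 1, log2-transformed, for genes with a mean FPKM above 0.5, upper-quartile and RLE scaling, other filters, an adjusted p under 0.01, replicates 2 and 3 only and each library left out. Added after seeing the data were limma-trend in replicates 2 and 3 only and the block with each library left out. The edgeR models were tested on simulated counts with 1 spread for all genes. In these, 100 genes changed 2-fold and 100 changed 4-fold. For SiREV1#1 against Scramble, the fit without a block recovered 0% and 14% of them, and that with the block 84% and 98%. The term for replicate 1 recovered 93% and 98%. The simulated spread was close to that of the block fit, and the replicate 1 shift was the same in every group. This suits the block, so its recovery may be lower in the data. For the term for replicate 1, only the changed genes differed in replicate 1, while in the data 30.7% of genes were lower and 31.2% higher. That 0 members passed without a block therefore says little about changes of this size.

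Same-numbered libraries deviated together from their group means over 14205 genes (correlation 0.673 to 0.897 in 9 pairs). The labels do not say what a number marks. Replicates 2 and 3 of different groups correlated as well (0.665 to 0.815, mean 0.72), since replicate 1 lies far from both. The correlation therefore cannot show whether replicates numbered 2 or 3 are paired across groups. The block removes mainly the difference of replicate 1. With it the biological coefficient of variation was 0.161 (0.412 without), and it left 3 residual degrees of freedom.

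Genes named are REV1, members that passed, members high in their role list, those with the largest replicate 1 difference, and, of each other list, the 3 genes with the smallest p that passed with the block in each siRNA comparison; others, such as members set beside these and genes of other lists in replicate 1, were named after their values were seen. Overlaps with other genes come from GENCODE 29 on GRCh38, and promoters from RefSeq.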

Additional observations from a re-analysis of the deposited data

Results flagged for a closer look

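For 21 genes the change after SiREV1#1 differed from that after SiREV1#2 in the direct contrast of the siRNAs with the replicate block (edgeR, adjusted p under 0.05 over 14205 genes), which is what brought them here. Values are the log2 difference, SiREV1#1 minus SiREV1#2. Among the subunits and inhibitors these were NFKB2 (-0.77), RELB (-0.79), NFKBIE (-0.88) and NFKBIB (0.80), with NFKBIB the gene that was higher after SiREV1#1. Among feedback genes and adaptors they were TNFAIP3 (-0.83), BIRC2 (-0.59) and BIRC3 (-1.35). The chemokines were CXCL1 (-1.25), CXCL2 (-1.28), CXCL3 (-2.02), CXCL5 (-0.83), CXCL8 (-2.68) and CCL20 (-1.54), that is 6 of 8. The cytokines were IL6 (-3.81), IL1A (-2.26), IL11 (-4.40) and LIF (-0.63), and the surface proteins and enzymes ICAM1 (-1.48), CD83 (-1.86), PTGS2 (-0.68) and SOD2 (-0.81). CXCL3, CXCL8, IL6, BIRC3 and NFKBIE passed in all 8 block fits that left out a library, IL11 in 7, and PTGS2 in 1. Passing in all 8 is a limited check, since replicates 2 and 3 of Scramble and SiREV1#1 nearly coincide. Without the block none of the 21 passed in edgeR. No group held enough libraries for a test of single outlying samples.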

How the results depend on the processing

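The 34 of 38 genes lower in replicate 1 numbered 31 to 35 over the alternatives, with 0 higher in each except that without Scramble replicate 1 (32 lower, and 1, the low gene IL1B, higher). With upper-quartile scaling, which moved the median of all genes to 0.12, 32 were called and the median of the 38 genes was -1.72. The siRNA counts depended on how replicate 1 was treated, and other causes were not tested. For SiREV1#1, SiREV1#2 and their contrast, 0, 0 and 0 genes passed without a block, 9, 1 and 21 with the replicate block, 8, 7 and 23 with limma-trend on log2(FPKM + 0.1) and the block, and 22, 24 and 33 in edgeR with replicates 2 and 3 only, where SiREV1#2 had 1 library, assumed to vary like the others. Chosen after seeing the data, limma-trend with replicates 2 and 3 only gave 28, 27 and 35. In that fit, 29.4% of 12175 genes were lower and 24.5% higher after SiREV1#1, and 25.5% lower and 26.7% higher after SiREV1#2. No share over all genes was counted for its contrast, for edgeR with replicates 2 and 3 only or for limma-trend with the block. Those member counts therefore cannot be set against a background. For the contrast DESeq2 and limma-trend on log2(FPKM + 1) each gave 1, and the other alternatives left all 3 counts at 0. With each library left out, counts were 0 in all 3 comparisons without a block, and over fits without and with the block they ranged from 0 to 13 for SiREV1#1, 0 to 13 for SiREV1#2 and 0 to 27 for the contrast. Directions that turned did so in such fits without a block: after SiREV1#2 BIRC3 -1.36 to 1.77 (negative without SiREV1#2 replicate 2), and in the contrast CXCL1 -1.60 to 0.10, BIRC3 -2.06 to 1.09, CXCL2 -1.78 to 0.37, TNFAIP3 -1.24 to 1.82, CCL20 -2.38 to 0.10, LIF -0.98 to 0.50, SOD2 -1.29 to 0.64, NFKB2 -1.20 to 2.04, RELB -0.96 to 2.03, PTGS2 -1.14 to 0.61, ICAM1 -1.72 to 0.90, CXCL8 -3.32 to 0.39, IL6 -4.06 to 0.49, IL11 -5.61 to 0.013, NFKBIE -1.28 to 1.41 and BIRC2 -1.07 to 0.88, positive without SiREV1#2 replicate 2, and for TNFAIP3, NFKB2, RELB and NFKBIE also without SiREV1#1 replicate 1. REV1 after SiREV1#1 no longer passed with no filter on low counts (-1.27, adjusted p = 0.074 from edgeR) or with any library left out. At 13059082 to 20166451 counts per library, IL1B and CSF2, with at most 10 and 3 counts, could not be assessed.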

Other observations

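Receptors for the members' ligands were tested beside them. With the replicate block 2 of 9 tested rose after SiREV1#1 and 2 after SiREV1#2, and 0 fell (edgeR, adjusted p under 0.05). Over all genes 5.32% rose and 6.96% fell after SiREV1#1, and 0.493% rose and 1.41% fell after SiREV1#2. With 9 genes tested, little can be read from these counts. IL6R, the receptor of IL6, was at 6.51, 4.57 and 4.83 FPKM in Scramble replicates 1, 2 and 3, 10.8, 6.18 and 6.87 after SiREV1#1 and 14.9, 13.2 and 11.9 after SiREV1#2. Both siRNA groups were above Scramble within each number, by 0.61 (SE 0.14, edgeR adjusted p = 0.028) and 1.46 (SE 0.16, edgeR adjusted p = 0.0092). IL1R2, a decoy receptor for interleukin-1, rose after SiREV1#1, by 0.94 (SE 0.15, edgeR adjusted p = 0.0076), and LIFR, the receptor of LIF, after SiREV1#2, by 1.14 (SE 0.17, edgeR adjusted p = 0.023). In the contrast of the siRNAs IL1R2 was higher after SiREV1#1 (log2 difference 0.99, SE 0.17, edgeR adjusted p = 0.0095) and LIFR lower (log2 difference -0.68, SE 0.17, edgeR adjusted p = 0.034). IL6R was also lower after SiREV1#1 than after SiREV1#2 (log2 difference -0.85, SE 0.16, edgeR adjusted p = 0.011).

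Of the other inflammatory ligands, CSF3 (G-CSF) was at 0.22, 2.38 and 2.03 FPKM in Scramble and 0.26, 0.54 and 0.58 after SiREV1#1, lower in replicates 2 and 3 and not in replicate 1, with a log2 fold change of -1.64 (SE 0.42, edgeR adjusted p = 0.041). CXCL16 rose, from 8.88, 15.8 and 16.8 to 12.5, 24.2 and 25.4 FPKM, higher in each pair, by 0.69 (SE 0.12, edgeR adjusted p = 0.011). After SiREV1#2, 0 of the 11 tested passed with the block in edgeR, beside 0.493% higher and 1.41% lower over all genes.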
